A study of Arabidopsis thaliana with 4 samples.

Results

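The Aux/IAA proteins and the auxin response factors (ARFs) are the transcriptional core of the auxin response, and the loci that encode them in *Arabidopsis thaliana* were examined here in the *seedstick* (*stk*) mutant against wild type. The members were taken by their locus identifiers. They comprise 29 Aux/IAA loci and 15 ARF loci, 44 of the 27206 loci in the expression data, and all 44 were present. The genotypes compared had 2 libraries each: plants homozygous for the *stk-2* allele, in which 74 nucleotides are inserted next to a splice site of the third intron of the MADS-box gene *STK*, and wild type of ecotype Columbia. RNA came from whole inflorescences, with flowers from stage 9 on, together with siliques collected up to 5 days after pollination, so that ovules, seeds, carpels, anthers and pollen were pooled in every library. Plants were grown under short or long days, and which library came from which day length is not given in the sources used here. The libraries are described as biological replicates. The insertion is carried in all cells, *STK* itself is active mainly in ovules, seeds and carpel tissue, and in such bulk material fewer cells of a type and less RNA per cell cannot be told apart.

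Auxin acts by removing a repressor. Aux/IAA proteins bind ARFs, which sit on the promoters of auxin-responsive genes, and bring in corepressors of the TOPLESS family. When auxin enters the pocket of the receptors TIR1 and AFB, a short degron in the Aux/IAA protein with the core residues glycine, tryptophan, proline and proline docks there, the Aux/IAA protein is ubiquitinated and degraded, and the ARF is freed. Many Aux/IAA genes are themselves induced by auxin, which closes a negative feedback loop. ARFs fall into activators (*ARF5*, *ARF6*, *ARF7*, *ARF8* and *ARF19*), a larger group of mostly repressive class B proteins, and class C proteins whose transcripts are cut by miR160. In flowers and fruits these genes pattern the gynoecium, ripen stamens and restrain the growth of ovules and fruits before fertilization.

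The degron is written in the coding sequence, and 23 of the 29 Aux/IAA loci carried the codons of its core in a RefSeq transcript on TAIR10.1, while *IAA20*, *IAA30*, *IAA31*, *IAA32*, *IAA33* and *IAA34* did not. The stretch is shown for the 4 canonical members whose levels or gene models are described most closely below. Capitals mark the 4 codons of the core, read 5′ to 3′ on the coding strand, at chr3:8195571-8195597 (plus strand) for *IAA7*, chr2:9637728-9637754 (plus) for *IAA8*, chr5:26255107-26255133 (plus) for *IAA9* and chr4:14324654-14324680 (minus) for *IAA27*.
IAA7: gtggtgGGATGGCCACCTgtgaggaac
IAA8: gttgttGGTTGGCCTCCAatcagatca
IAA9: attgtcGGTTGGCCTCCAgtgagatcc
IAA27: gtggtgGGATGGCCACCAataagatca

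ARF transcripts are trimmed by small RNAs. The mature miR160a and miR167a sequences (TAIR10.1, DNA letters) are shown with the seed, bases 2 to 8, in capitals, at chr2:16340282-16340302 and chr3:8108090-8108110, both on the plus strand.
miR160a: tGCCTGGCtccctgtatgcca
miR167a: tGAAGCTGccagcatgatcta
The best match to each was then sought in the transcript of every ARF. Of the 15 ARFs, *ARF6* and *ARF8* matched miR167a with 4 and 3 mismatches, and *ARF10*, *ARF16* and *ARF17* matched miR160a with 2, 3 and 1 mismatches, all inside the coding sequence, whereas no other ARF came closer than 7 mismatches to either. In the sites, capitals mark the bases opposite the seed. They lie at chr1:10686478-10686498 (minus) in *ARF6*, chr5:14633841-14633861 (plus) in *ARF8*, chr2:12115741-12115761 (plus) in *ARF10*, chr4:14704141-14704161 (minus) in *ARF16* and chr1:29274189-29274209 (plus) in *ARF17*.
ARF6: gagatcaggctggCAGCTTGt
ARF8: tagatcaggctggCAGCTTGt
ARF10: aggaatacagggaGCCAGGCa
ARF16: gggtttacagggaGCCAGGCa
ARF17: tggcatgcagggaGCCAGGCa
A match is a description of the letters only, and the small RNA loci themselves were not analysed here.

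Levels are RPKM, reads scaled to exon length and to the size of the library, and a locus sum adds the RPKM of all annotated gene models of a locus. Library sizes recovered from the spacing of the values were 30564226 and 33673013 reads in the *stk* libraries and 16965990 and 21075022 reads in the wild-type libraries, so that 3 reads on 1 kilobase of exon correspond to between 0.0891 and 0.177 RPKM. The wild-type values, with fewer reads behind them, are thus the less precise ones. *STK* had a locus sum of 7.91 and 7.96 RPKM in *stk* against 38.7 and 40.9 RPKM in wild type. According to the file headers, *stk* replicate 1 was read in lane 7 and the other 3 libraries in lane 1. The libraries also differed by exon length: the median log2 fold change of all loci was 0.20 in the shortest and -0.14 in the longest of 5 equal classes of exon length. The 3 tested of 6 seed markers, *BAN*, *AGL62* and *PHE1*, had each *stk* value above each wild-type value, where this held for 16.3% of all loci. *AGL62* averaged 0.96 RPKM in wild type and met the filter of 1 RPKM only through *stk*. *FIS2*, *WOX2* and *WOX8* were below 1 RPKM, and the groups overlapped in *FIS2* and *WOX2* but not in *WOX8*, which was higher in *stk*. The list summed to 84.6 and 97.0 RPKM in *stk* against 39.6 and 44.9 RPKM in wild type. Most of that sum is *BAN*, the anthocyanidin reductase gene of the seed coat, which the study itself listed as changed from these libraries, and without *BAN* the list summed to 7.22 and 7.19 RPKM in *stk* against 2.70 and 5.07 RPKM in wild type. Tapetum markers summed to 154 and 97.9 RPKM in *stk* against 221 and 87.2 RPKM in wild type. *A9* was highest in *stk* replicate 1 (75.3 RPKM) and *A6* in wild-type replicate 1 (190 RPKM). The pollen marker sums were 102 and 96.4 RPKM in *stk* against 103 and 91.1 RPKM in wild type, but members differed in direction. *ACT11* had 65.6 and 61.5 RPKM in *stk* against 59.5 and 54.3 RPKM in wild type. *ACT4* (14.4 and 14.0 against 19.1 and 14.6 RPKM) and *ACT12* (21.8 and 20.8 against 24.9 and 22.1 RPKM) were lower in *stk*. The 7 carpel and ovule markers went mixed ways. Each *stk* value was above each wild-type value in *SHP2* and below in *STK*, *BEL1* and *ANT*, while *AG*, *SHP1* and *INO* overlapped. Over all loci 16.3% lay above and 26.8% below in this way. The part of depth, lane and cell composition in the results below was not tested.

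Both families were well expressed in this tissue. Of the 44 members, 40 had a mean locus sum of at least 1 RPKM and were tested. The other 4, *IAA15*, *IAA29*, *IAA32* and *IAA34*, lay between 0 and 0.343 RPKM in every library and were left untested. The most abundant member was *IAA8*, followed by *IAA9*, *IAA7*, *IAA16* and *ARF2*, the repressor that limits integument growth and seed size. *IAA8* had 335 and 345 RPKM in *stk* against 363 and 317 RPKM in wild type. *IAA9*, whose tomato counterpart restrains fruit set before fertilization, had 283 and 286 RPKM in *stk* against 242 and 251 RPKM in wild type. Every library of these 2 genes lay above every library of the other members. *IAA16*, a close relative of *IAA7*, had 121 and 91.9 RPKM in *stk* against 91.7 and 84.5 RPKM in wild type. *ARF2* had 92.9 and 89.6 RPKM in *stk* against 107 and 94.5 RPKM in wild type. Between *IAA16* and *ARF2* the libraries overlapped, so that their order is not resolved.

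In the comparison of *stk* with wild type, 4 of the 40 tested members were at an unadjusted p of at most 0.05 in limma, 3 higher and 1 lower, where 9.18% of all 19044 tested loci were (5.66% higher and 3.53% lower). This share of members is close to that of all loci. At an adjusted p under 0.05 limma called 0 of the 40 members and 0 of all loci, 1749 of them being at 0.05 or less without adjustment. After adjustment Baggerley's test called 0 members and 56 of all loci. In limma without *stk* replicate 2 the adjusted threshold was passed by 1 member, *IAA31*, and by 1575 of all loci. Without *stk* replicate 1 or without wild-type replicate 1 the members so found without adjustment numbered 1, *IAA31*, against 3 without *stk* replicate 2 and 5 without wild-type replicate 2. On the most abundant model of each locus alone they numbered 2. Baggerley's test on proportions, the kind of test the study used, gave 4 members with an unadjusted p of at most 0.05, *IAA7* higher and *ARF5*, *ARF6* and *ARF8* lower, where it gave 2.6% of all loci (1.33% higher and 1.27% lower). The plot of fold changes by family shows the 40 tested members together.

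**Figure D1:**
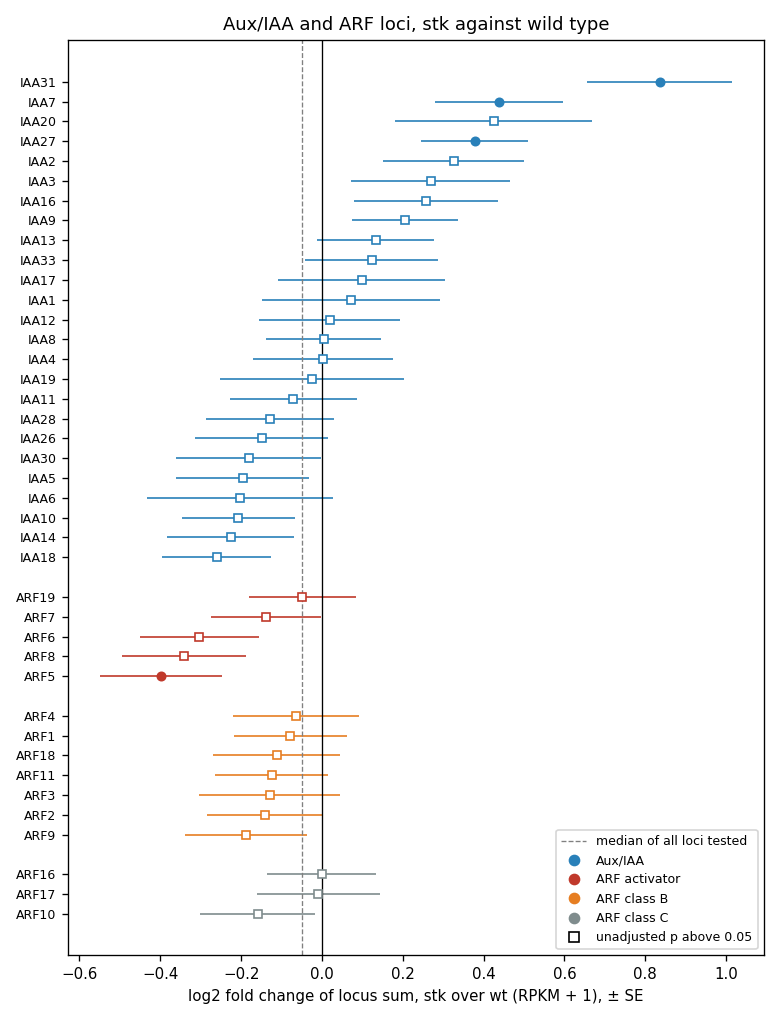
Log2 fold change of the locus sum, *stk* over wild type on the log2(RPKM + 1) scale, for each tested member, with its standard error. Filled points have an unadjusted p of at most 0.05 in limma, and the dashed line is the median of all loci tested, at -0.05. Aux/IAA loci spread to both sides of 0 while the 15 ARF loci lie below it, 13 of them after quantile normalization and 8 with the length trend removed.

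The largest difference among the repressors was in *IAA31*, a short Aux/IAA gene that lacks the degron core. *IAA31* (AT3G17600, chr3:6020025-6021142 in TAIR10, minus strand) had 8.78 and 7.68 RPKM in *stk* against 3.53 and 4.89 RPKM in wild type. Each mutant value exceeded each wild-type value, with means of 8.23 ± 0.774 and 4.21 ± 0.960 RPKM (SD, n = 2 each), a ratio of 1.96. The log2 fold change came to 0.84 ± 0.18 (SE; limma, Benjamini-Hochberg adjusted p = 0.415). *IAA31* is also short, with an exon length of 892 bases, and with each library's trend against exon length removed the value was 0.65. Baggerley's test, run on RPKM as counts and so with little power at this level, gave *IAA31* an unadjusted p of 0.131. About 239 and 231 reads in *stk* and 53 and 92 reads in wild type lay behind its values. *IAA20*, also without the degron core, had 1.90 and 0.997 RPKM in *stk* against 0.540 and 1.09 RPKM in wild type. Its groups overlapped, and *stk* replicate 1 alone was high.

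*IAA7* and *IAA27* carry the full degron and were higher in *stk* by a smaller margin. *IAA7* (AT3G23050), whose stabilized form makes plants auxin resistant, had 216 and 195 RPKM in *stk* against 138 and 166 RPKM in wild type. The log2 fold change came to 0.44 ± 0.16 (SE; limma, Benjamini-Hochberg adjusted p = 0.515). *IAA27* (AT4G29080) had 48.7 and 46.3 RPKM in *stk* against 36.2 and 36.5 RPKM in wild type. The replicates of each genotype were close together, and the log2 fold change was 0.38 ± 0.13 (SE; limma, Benjamini-Hochberg adjusted p = 0.514). With the length trend removed the values for *IAA7* and *IAA27* were 0.45 and 0.41. *IAA27* had an unadjusted p above 0.05 without any 1 of the 4 libraries (log2 fold changes of 0.34 to 0.41), and *IAA7* without *stk* replicate 1 (0.36) or wild-type replicate 1 (0.31).

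The family spread to both sides of 0. The log2 fold changes of the 25 tested Aux/IAA loci ran from -0.26 in *IAA18* to 0.84 in *IAA31*, with 15 above 0, 10 below 0 and a median of 0.02, beside a median of -0.05, 40.2% above 0 and 59.8% below 0 over all loci. The median moved between -0.07 without *stk* replicate 1 and 0.19 without *stk* replicate 2. Each *stk* value exceeded each wild-type value in 7 of the 25, among them *IAA2*, *IAA7*, *IAA9*, *IAA13* and *IAA16*, where this held for 16.3% of all loci. The opposite held in *IAA5*, *IAA10*, *IAA14* and *IAA18*, 4 of the 25, where it held for 26.8% of all loci. Within the clade of *IAA7*, *IAA14*, *IAA16* and *IAA17* the values ran to both sides of 0: *IAA14*, known from lateral root formation, had 4.88 and 3.81 RPKM in *stk* against 5.09 and 5.35 RPKM in wild type, whereas *IAA17* had 32.6 and 28.6 RPKM in *stk* against 23.7 and 34.1 RPKM in wild type. The locus of *IAA13* covers all of AT2G33300 on the other strand, which was listed at 0 in all 4 libraries.

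**Figure D2:**
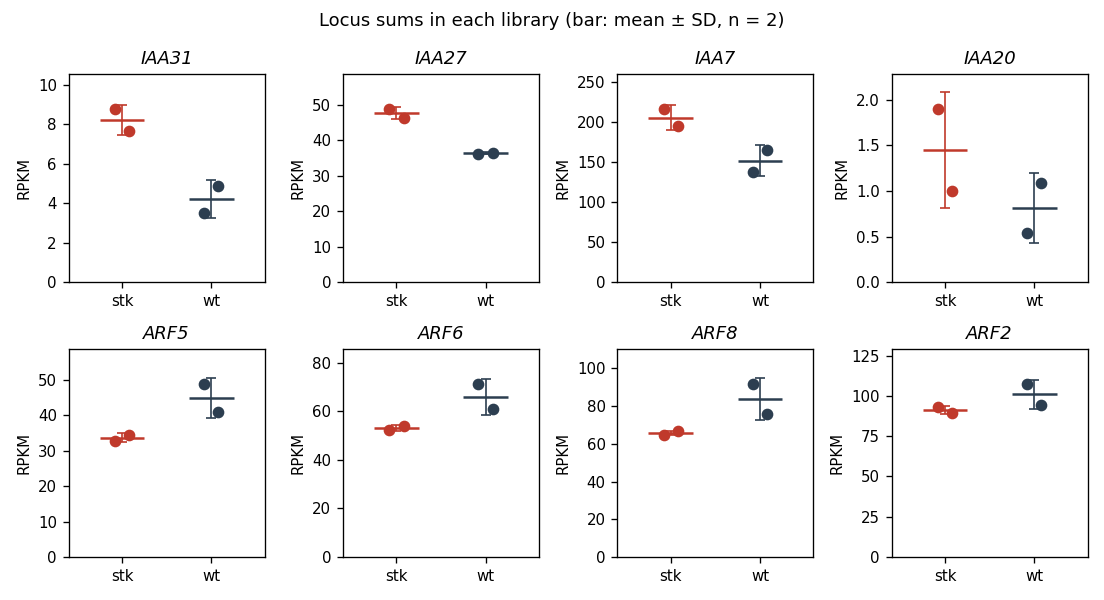
Locus sums in RPKM in each library for 4 Aux/IAA loci (upper row) and 4 ARF loci (lower row), *stk* left of wild type. Points are libraries and bars give the mean and SD of 2. *IAA31*, *IAA27* and *IAA7* are higher and *ARF5*, *ARF6*, *ARF8* and *ARF2* lower in both *stk* libraries, while the groups overlap in *IAA20*.

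The 15 ARFs all had a log2 fold change below 0 on RPKM as deposited, 13 of them after quantile normalization or scaling by the median ratio and 8 with the length trend removed. The 3 most negative values belonged to activators, and all 5 activators stayed below 0 under both scalings, but 3 of 5 did so with the trend removed. *ARF5* (*MONOPTEROS*, AT1G19850, chr1:6886879-6891374 in TAIR10, plus strand), which sets up the embryo axis and vascular tissue, had 32.8 and 34.5 RPKM in *stk* against 48.8 and 40.8 RPKM in wild type. The log2 fold change came to -0.40 ± 0.15 (SE; limma, Benjamini-Hochberg adjusted p = 0.527). It was the only ARF with an unadjusted p of at most 0.05 in limma, and lost it without *stk* replicate 1 (-0.36), *stk* replicate 2 (-0.43) or wild-type replicate 1 (-0.27). *ARF6* and *ARF8*, which together ripen stamens and the gynoecium and are both cleaved through the miR167 sites shown above, were looked at after their values were seen. *ARF8* had 64.8 and 66.6 RPKM in *stk* against 91.8 and 75.9 RPKM in wild type, a log2 fold change of -0.34. *ARF6* had 52.3 and 53.9 RPKM in *stk* against 71.2 and 60.8 RPKM in wild type, a log2 fold change of -0.30. In all of these the *stk* libraries were nearly equal and wild-type replicate 1 was the highest, while wild-type replicate 2 lay closer to the mutant. *ARF7* and *ARF19*, the pair best known from lateral roots, had log2 fold changes of -0.14 and -0.05. The last 254 bases of *ARF7* overlap AT5G20720 on the other strand, and no use of strand in the counting is stated.

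Class B and class C members had values closer to 0 than *ARF5*, *ARF6* and *ARF8*. The 7 class B loci ran from -0.19 in *ARF9* to -0.06 in *ARF4*, with a median of -0.12, and *ARF3* (*ETTIN*), which patterns the gynoecium, had 24.8 and 23.9 RPKM in *stk* against 30.7 and 23.3 RPKM in wild type. The 3 class C loci, whose miR160 sites are printed above, had a median of -0.01. *ARF16* had 15.2 and 15.7 RPKM in *stk* against 14.9 and 16.1 RPKM in wild type. *ARF17* had 11.0 and 10.4 RPKM in *stk* against 11.9 and 9.83 RPKM in wild type, and the groups overlapped in both. *ARF10* was the exception, with 14.5 and 14.3 RPKM in *stk* against 17.3 and 15.0 RPKM in wild type.

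Each *stk* value was under each wild-type value in 9 of the 15 ARF loci, including all 5 activators, 3 of 7 in class B and 1 of 3 in class C, where this held for 26.8% of all loci. The family median was -0.13, and it was -0.06 without wild-type replicate 1 and -0.23 without wild-type replicate 2. ARF transcripts are long, however, with a median exon length of 2998 bases against 1308 bases for the tested Aux/IAA loci and 1670 bases for all loci. Among the 4779 tested loci as long as the ARFs (2171 to 4429 bases), the median log2 fold change was -0.12 and 80.1% lay below 0. The ARF median is therefore close to that of other long loci, and with the length trend removed it was -0.02, with 8 of 15 below 0. The activators had a median of -0.30 as deposited and -0.15 with the trend removed. There *ARF5*, *ARF8* and *ARF6* kept values of -0.25, -0.20 and -0.15, while *ARF7* and *ARF19* had values of 0.02 and 0.11. *ARF5* then had an unadjusted p of 0.076 in limma fitted over all loci.

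**Figure D3:**
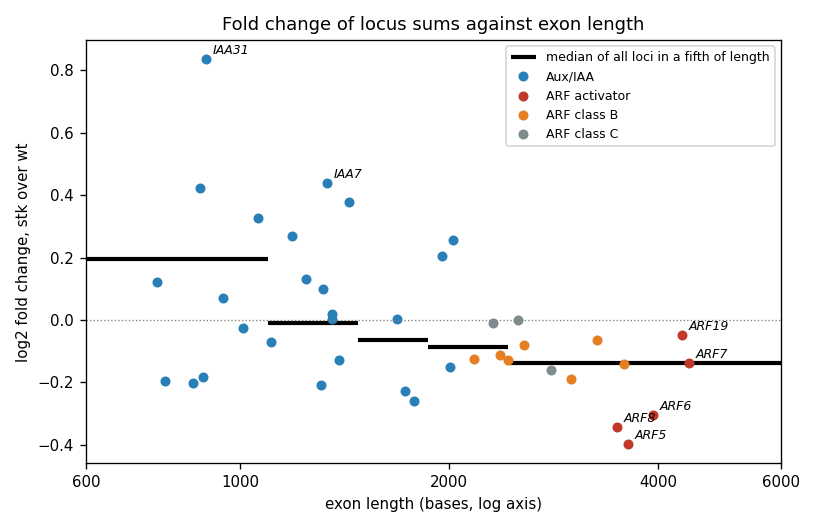
Log2 fold change of the locus sum, *stk* over wild type, against exon length in bases on a log axis. Black lines are medians of all tested loci in 5 equal classes of length, at 0.20 in the shortest and -0.14 in the longest, and points are the 40 tested members by class. The ARF points lie around the lines of their length, with *ARF5*, *ARF6* and *ARF8* below.

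The balance of the families was also read within each library. The summed RPKM of the 15 ARF loci was 31.5% and 33.8% of that of the 29 Aux/IAA loci in *stk* against 45.3% and 39.0% in wild type. The sums were 408 and 408 RPKM for ARFs in *stk* against 508 and 438 RPKM in wild type. Those of the Aux/IAA loci were 1297 and 1207 RPKM in *stk* against 1120 and 1123 RPKM in wild type. The groups did not overlap in either sum, and the exact two-sided permutation test of the ratio gave p = 0.333, the smallest that 2 libraries against 2 allow. *IAA7*, *IAA8* and *IAA9* make up most of the Aux/IAA sum, and the ARFs are the longer genes, and the part of the length trend in the ratio was not tested.

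Many of these loci have several annotated gene models, and the members hold 68 models, with more than 1 model at 14 loci. Reads that fit several models are divided by the authors' software, so the level of a model rests on the bases and junctions that set it apart. Of the 68 models, 54 had a mean of at least 1 RPKM and were tested. In limma 6 of these were at an unadjusted p of at most 0.05, 5 higher and 1 lower, where 7.05% of all 22522 tested models were (3.84% higher and 3.21% lower). Among the 6, *IAA8* model 3 and *IAA7* model 2 averaged under 1 RPKM in wild type, and *IAA12* model 1 did in *stk*. They met the filter only through the genotype in which they are high, so their calls depend on it. With 1 RPKM required in every library the count was 3. An adjusted p under 0.05 was reached by 0 of the 54 member models and by 2 models in all (0.00888%) in limma, and in Baggerley's test by 1 member model, *IAA8* model 3, and 90 models in all. Baggerley's test gave 4 member models with an unadjusted p of at most 0.05, *IAA8* model 3 and *IAA9* model 2 higher and *ARF5* model 1 and *ARF8* model 1 lower, where it gave 3.2% of all models (1.59% higher and 1.61% lower). *IAA8* and *IAA9* belong to the genes that the study listed as changed from these same libraries, so their calls are not independent evidence.

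Among the features that set the models of *IAA8* and *IAA9* apart in the reference, beside other ends and exons (exon lengths of 1369 to 1681 bases in *IAA8* and of 1950 and 1486 bases in *IAA9* models 1 and 2), are alternative splice acceptors a few bases apart, which are shown here. How far the model levels rest on them was not tested, and the reference ends of both *IAA9* models and of *IAA8* model 1 differ from those in the files. Capitals mark the bases that are exonic in one model and skipped as intron in another. In the last intron of *IAA8* (chr2:9638398-9638427, plus strand) the 6 capital bases are exonic in models 1, 3 and 4 and skipped in model 2. In its first intron (chr2:9637085-9637114, plus) the 3 capital bases are exonic in model 3 only. In the last intron of *IAA9* (chr5:26256073-26256102, plus) the 6 capital bases are exonic in model 1 and skipped in model 2.
IAA8 last intron: tgatttattctgtggcagCTCCAGgtgcag
IAA8 first intron: tgttgttgtgatgctaagCAGataaaacaa
IAA9 last intron: gaactggtgatattgcagCTGCAGctccga
In each the capitals end in the letters AG, as does the sequence before them, so that 2 acceptors stand next to each other.

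*IAA8* model 3 had 9.54 and 5.88 RPKM in *stk*, about 399 and 271 reads, and was listed at 0 in both wild-type libraries. No fold is given against a group at 0. The difference on the log2(RPKM + 1) scale, which depends on the 1 RPKM added, was 3.09 ± 0.25 (SE; limma, Benjamini-Hochberg adjusted p = 0.165). This model was a minor one, with 2.84% and 1.70% of the *IAA8* sum in *stk*. The main models varied more between replicates than between genotypes: model 2 had 248 and 219 RPKM in *stk* against 306 and 165 RPKM in wild type, and model 4 had 78.1 and 120 RPKM in *stk* against 57.2 and 152 RPKM in wild type. The locus sum of *IAA8* had a log2 fold change of 0.00.

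*IAA9* model 2 had 22.4 and 14.8 RPKM in *stk* against 8.74 and 7.75 RPKM in wild type. The log2 fold change came to 1.06 ± 0.24 (SE; limma, Benjamini-Hochberg adjusted p = 0.653), whereas the main model 1 had 261 and 271 RPKM in *stk* against 234 and 243 RPKM in wild type. Without wild-type replicate 2 the value for model 2 was 0.98, with an unadjusted p above 0.05. *IAA7* model 2, which in the reference ends within an intron of model 1, had 3.93 and 2.85 RPKM in *stk* against 1.01 and 0.62 RPKM in wild type. This was a log2 fold change of 1.27 ± 0.21 (SE; limma, Benjamini-Hochberg adjusted p = 0.513), in a model that held under 2% of the locus sum in each library. *IAA12* (*BODENLOS*), the repressor that partners *ARF5* in the embryo, was the member with a lower model. Its model 1, which keeps an intron in the reference, had 0.31 and 1.15 RPKM in *stk* against 3.77 and 1.77 RPKM in wild type. The log2 fold change came to -1.12 ± 0.40 (SE; limma, Benjamini-Hochberg adjusted p = 0.697), with about 13 and 54 reads in *stk* and 89 and 52 reads in the shallower wild-type libraries behind it. Without replicate 1 of either genotype it no longer had an unadjusted p of at most 0.05, with log2 fold changes of -0.76 without *stk* replicate 1 and -0.73 without wild-type replicate 1. The single models of *IAA31* and *IAA27* are the loci already described.

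**Figure D4:**
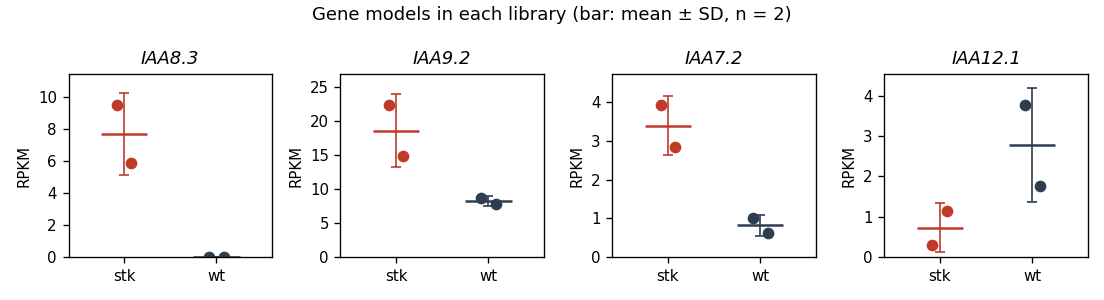
RPKM of 4 gene models in each library, *stk* left of wild type, with the mean and SD of 2 libraries. *IAA8* model 3 is listed at 0 in both wild-type libraries, *IAA9* model 2 and *IAA7* model 2 lie higher in both *stk* libraries, and *IAA12* model 1 lies lower.

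The share of each model in its locus sum was then compared for 28 member models. One of them, *IAA8* model 3, had an unadjusted p of at most 0.05 in limma, where 8.39% of all 10611 tested shares did so (4.1% higher and 4.29% lower). Without wild-type replicate 2 there were 0 such shares among the members, and without *stk* replicate 2 there were 3. The share of *IAA8* model 3 was 2.27 percentage points higher in *stk* (limma, Benjamini-Hochberg adjusted p = 0.330), and 0 shares in all reached an adjusted p under 0.05, with 890 at an unadjusted p of at most 0.05. Differences of more percentage points in other loci did not reach that threshold. *IAA13*, the close relative of *IAA12*, had 62.1% and 51.9% of its sum in model 1 in *stk* against 57.9% and 17.9% in wild type. Wild-type replicate 2 alone set that difference of 19.1 percentage points apart. *ARF1*, which acts with *ARF2* in the shedding of floral organs, had 19.6% and 35.7% in model 2 in *stk* against 6.37% and 20.7% in wild type, where the groups overlapped. Its model 4 had 47.0% and 51.7% in *stk* against 66.0% and 55.0% in wild type, a difference of -11.2 percentage points without overlap. *ARF9* had 27.7% and 33.4% in model 2 in *stk* against 41.6% and 35.6% in wild type, a difference of -8.04 percentage points in which the groups did not overlap. In *ARF2*, model 3 was the main form with 71.3% and 78.8% in *stk* against 86.4% and 74.9% in wild type, with overlap. In *IAA12* model 1 made up 1.11% and 5.25% in *stk* against 14.3% and 7.95% in wild type, without overlap.

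**Figure D5:**
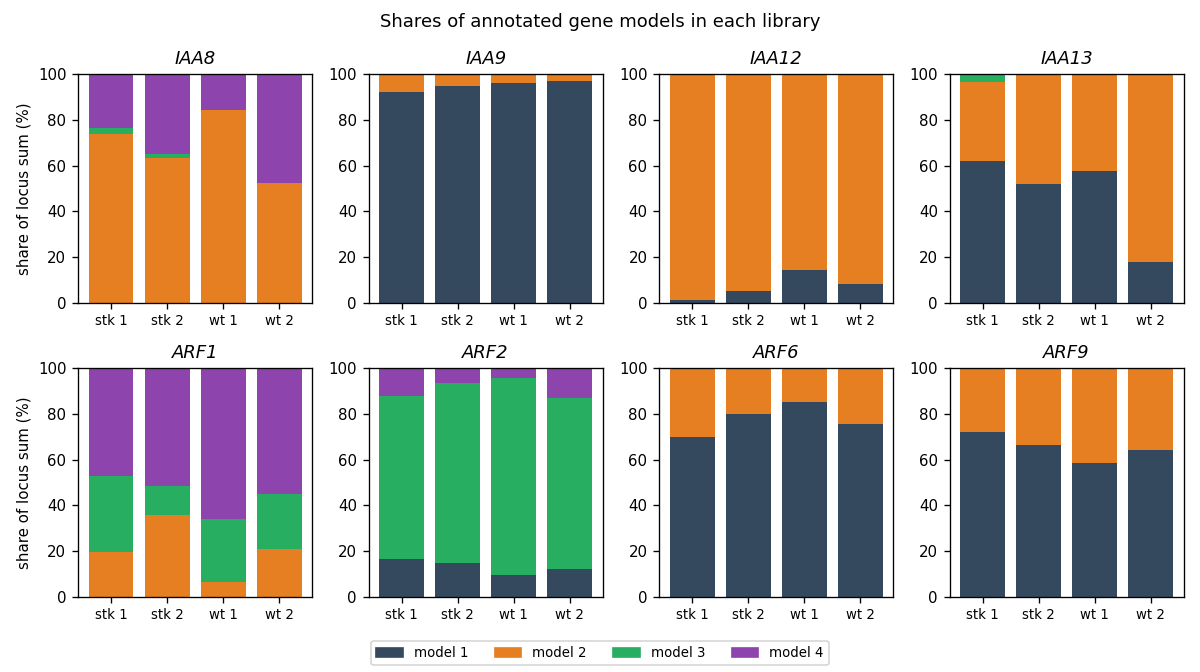
Share of each annotated gene model in the locus sum, in percent, for 8 members in each library, *stk* libraries left of wild-type libraries. Colours mark the model number. The replicates of one genotype differ by as much as the genotypes in *IAA8*, *IAA13*, *ARF1*, *ARF2* and *ARF6*.

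The promoters of the members were searched for 2 forms of the ARF binding element, TGTCTC and TGTCGG, on both strands of the 250 bases before and 50 bases after the RefSeq start. The first was found in 12 Aux/IAA and 1 ARF promoter, 13 of 44, where 14.2% of 27444 promoters held it, and the second in 6 Aux/IAA and 2 ARF promoters, 8 of 44, where 5.1% held it. The promoter of *IAA31* held TGTCTC and that of *IAA27* held TGTCGG, whereas neither form was found for *IAA7*, *ARF5*, *ARF6* or *ARF8*. The *IAA31* match lay on the strand opposite the gene and within the 50 bases after the start, not upstream of it. The forms were counted separately, and a promoter can stand in both counts, as those of *IAA1* and *IAA5* do.

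The other genes of the pathway were read from fixed lists in the same fit over all loci. The 6 receptors (TIR1 and AFB1 to AFB5), the 5 TOPLESS corepressors and 6 genes of the ubiquitin ligase and its RUB modification held 0 loci with an unadjusted p of at most 0.05 in limma. Baggerley's test gave 1 of them, the SKP1-like subunit *ASK1*, at 274 and 232 RPKM in *stk* against 295 and 256 RPKM in wild type (unadjusted p = 0.035 over all loci). With the length trend removed limma gave 1, the RING subunit *RBX1*, at -0.38 (unadjusted p = 0.0093), which as deposited was at -0.03. Medians of their log2 fold changes were -0.03, -0.20 and -0.07. In all 5 corepressors each *stk* value was under each wild-type value, where this held for 26.8% of all loci. But they too are long, in the longest class, where 83.8% of loci had a log2 fold change below 0. With the length trend removed the corepressor median was -0.04. Of the GH3 genes, which conjugate auxin to amino acids, 1 of 5 tested passed that threshold: *GH3.17* had 10.2 and 10.5 RPKM in *stk* against 13.1 and 15.6 RPKM in wild type, a log2 fold change of -0.43. It was at -0.34 with the length trend removed and lost the threshold there (limma, unadjusted p = 0.068), as it did in Baggerley's test (unadjusted p = 0.19). Of the transcription factors that ARFs activate, *TMO5* and *TMO6* were tested, neither passing, and *LBD16*, *LBD18*, *LBD29* and *TMO7* were below 1 RPKM.

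The SAUR genes, short early auxin-induced genes of cell expansion, were the exception. All 7 had a log2 fold change above 0, where 40.2% of all loci did. All 7 fall in the shortest class of exon length, where only 26.7% of loci lay below 0. With the length trend removed 6 of 7 were above 0, and *SAUR63* was at -0.27. The other 6 (*SAUR15*, *SAUR19*, *SAUR20*, *SAUR22*, *SAUR23* and *SAUR24*) had an unadjusted p of at most 0.05 on RPKM as deposited, where 5.66% of all loci were higher at that threshold. With the length trend removed *SAUR19* and *SAUR23* no longer passed. Baggerley's test called 0 of the 7. It took RPKM as counts, which limits its power at low RPKM. The spread between replicates also enters it, and that spread was wide in *stk* for *SAUR20* and *SAUR24*. The part of each in these results was not tested. An adjusted p under 0.05 was reached by 0 of the 7 in limma with all 4 libraries and no block. With crossed replicate numbers as a block, chosen after seeing the data, an adjusted p under 0.05 was reached by 6, in a fit that called 921 of all 19044 loci. In limma without *stk* replicate 2 it was reached by 6 of them, in a fit that called 1575 of all loci, and without *stk* replicate 1 by 1, in a fit that called 336. Over all lists, 7 loci were at an unadjusted p of at most 0.05 in limma, *GH3.17* and the 6 SAUR genes. Without wild-type replicate 1 *GH3.17* kept that threshold and the SAUR genes did not. With a library left out, log2 fold changes ran from 0.40 to 1.32 in *SAUR23* and from 1.01 to 2.78 in *SAUR24*. The levels were low and led by *stk* replicate 1, with *SAUR24* at 15.0 and 3.70 RPKM in *stk* against 0.43 and 2.78 RPKM in wild type, and *SAUR20* at 13.8 and 5.22 RPKM in *stk* against 1.67 and 3.64 RPKM in wild type. *SAUR15* averaged 0.24 RPKM in wild type and met the filter of 1 RPKM only through *stk*. *SAUR19* to *SAUR24* are near-identical neighbours among which reads are divided, so they are not separate observations. Their median exon length of 633 bases puts them in the shortest class of loci, where *stk* replicate 1 lay 0.32 above the mean of the libraries on the log2 scale. Without the length trend the median of the list was 0.58 instead of 0.91.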

How the data were processed

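The authors sequenced single reads of 50 bp, mapped them to TAIR10 with up to 2 mismatches, computed levels in CLC Genomics Workbench 4.7.1 and deposited RPKM per gene model for each of 4 libraries (35182 models). Deposited tables of enriched GO terms hold the study's own comparisons and were not used. RPKM values were summed per locus. Log2(RPKM + 1) was compared between *stk* and wild type (loci or gene models averaging 1 RPKM or more) by limma 3.58.1 in R 4.3.3 and Benjamini-Hochberg adjustment over all features tested. Such a fold change understates that of low genes. Shares of models (locus sum of at least 1 RPKM in every library, mean share of at least 1%) were tested after an arcsine square root transformation. Baggerley's test was rewritten and applied to RPKM, with summed RPKM as the library size. At low RPKM it can therefore miss differences that the reads resolve, so a call lost there at such levels decides little. The spread between replicates also enters the test and can lose a call too.

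Library sizes were recovered from 4980 single-model loci, at which between 98.3% and 98.7% of the values tested gave whole reads within 0.02. Exon lengths, transcripts and sequences come from TAIR10.1 with RefSeq annotation, in which 26.2% of models, and 14 of the 68 member models, have the ends given in the files, so read numbers and structures of the others are approximate. Positions of models on the minus strand are often mirrored within their locus in the files (1419 of 3508 models), so only locus spans were used. No use of strand is stated.

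The members and lists were chosen with earlier results of these data known. Values are given for members with an unadjusted p of at most 0.05 in one of the 3 fits, the 5 largest fold changes, the 5 highest sums, *IAA8* and *IAA9*, and the 5 largest share differences, and for list genes at that p. Others are examples chosen after their values were seen. Self-tests used simulated data. Alternatives were other pseudocounts, filters, scalings and tests, a replicate block, leaving out each library and the most abundant model alone. Removal of each library's trend against exon length and crossed replicate numbers were chosen after seeing the data. Same-numbered libraries deviated with a correlation of -0.13. The labels do not state whether same-numbered libraries were collected as pairs, and this correlation cannot decide it.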

Additional observations from a re-analysis of the deposited data

How the results depend on the processing

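The 15 named fold changes kept their direction in 213 of 217 alternatives. The exceptions were *IAA8*, whose log2 fold change of the locus sum was -0.047 after quantile normalization and ranged from -0.093 to 0.10 when a library was left out, and *ARF2*, at 0.0032 with the length trend removed. Many of the 217 could not reverse a direction. Other filters, a trended fit and the blocks left each fold change as it was. The most abundant model did so at loci with a single model. Leaving out a library cannot reverse the direction where the groups do not overlap. The count of 213 is therefore no measure of robustness. Of the 217, 30 lost and 4 gained an unadjusted p of at most 0.05. *IAA31* lost it in Baggerley's test, and *IAA27* there and without any 1 of the libraries. *IAA7* lost it after quantile normalization, on the most abundant model and without replicate 1 of either genotype. *ARF5* lost it with a pseudocount of 0.1, on the most abundant model, with the length trend removed and without either *stk* library or wild-type replicate 1. *IAA27*, *IAA7* and *ARF5* also lost it with crossed numbers. *IAA7* model 2 lost it in Baggerley's test, *IAA9* model 2 without wild-type replicate 2 and *IAA12* model 1 in 9 settings, while *IAA8* model 3 kept it in all 13. The count of 4 member loci was 2 on the most abundant model alone and 1 to 5 with a library left out. The count of 6 member models was 3 once each library had to reach 1 RPKM, which by construction leaves out *IAA8* model 3, *IAA7* model 2 and *IAA12* model 1. The count of 1 member share was 3 on log2 odds and with a trended limma fit, and 0 to 3 with a library left out. The count of 7 pathway loci was 1 in Baggerley's test, *ASK1*, with 0 of the 7 called there, and 1 to 7 with a library left out. The ARF median was -0.015 with the length trend removed and -0.23 to -0.059 with a library left out, and the Aux/IAA median was -0.071 to 0.19. The causes of these moves were not tested. Whether the labels' replicate numbers pair the samples is not stated. With the replicate number as a block, 4 member loci, 5 member models, 2 member shares and 3 pathway loci were at an unadjusted p of at most 0.05. With crossed numbers as a block these counts were 1, 5, 3 and 6. With 2 libraries a genotype, the spread is poorly known, and depth limits the 4 untested members most, which lay under 1 RPKM.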
